A study of Bos taurus with 6 samples.

Results

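The translation initiation and elongation factors of cattle were compared between day 7 blastocysts and granulosa cells. The genes were taken by name, as those whose symbol in the annotation of the array begins with EIF1 to EIF6 or with EEF, and the brightest probe stood for each gene. This gave 60 genes with 90 probes, out of 15216 named genes on the array. Of the 60, 57 carry symbols of initiation factors, elongation factors or their regulators. The other 3, listed under the older symbols EIF2C1, EIF2C2 and EIF2C3, are the argonautes AGO1, AGO2 and AGO3 of small RNA silencing, and were kept as members of the name list but are described apart. No probe carried the symbol EIF1AX, EIF3A or EIF4G1, so these factors were not analysed here.

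The blastocysts were bovine embryos fertilised in vitro with semen mixed from 3 bulls, grown in SOF medium and collected on day 7, from oocytes of follicles of 3 to 6 mm. The granulosa cells, which surround the oocyte within the follicle and make oestradiol, were aspirated from lactating cows on day 8 to 11 after oestrus; after removal of follicles over 5 mm the cows had received 6 injections of 40 mg follicle-stimulating hormone (FSH), and the cells were collected 44 h after the last one. Both sources are labelled Holstein, and all RNA was amplified before labelling. Each of 6 arrays carried blastocyst RNA in one dye and granulosa RNA in the other, 3 in each orientation, and same-numbered arrays of opposite dye were averaged to 3 replicates. The labels call these biological replicates and do not say how many embryos or cows each holds, so p-values measure the spread between these 3 pools. The median raw intensity of an array lay between 189 and 386 for Cy3 and between 177 and 210 for Cy5, and the number of arrays limits the precision. Most defining markers followed the labels. In blastocysts, 6 of 9 trophectoderm and 4 of 5 inner cell mass markers were higher (5.68% of all genes). In granulosa cells, 5 of 8 tested granulosa markers were higher (7.65% of all genes). The log2 ratio of blastocyst over granulosa signal did not pass for KRT8 (4.09), CDX2 (0.26), GATA3 (0.18) and SOX2 (-0.04). CDX2, GATA3 and SOX2 were dim. Nor did it pass for CYP19A1 (-3.22), FSHR (-1.79) and AMH (-1.25). The granulosa pools also carried markers of other cells to different degrees. The mean log2 intensity over 8 leukocyte markers was 7.54, 7.16 and 7.23 in blastocyst pools 1 to 3 and 10.65, 9.09 and 8.00 in granulosa pools 1 to 3. Over 6 theca and stroma markers it was 8.17, 7.81 and 8.11 in blastocysts and 10.03, 10.73 and 8.54 in granulosa cells, and over 5 endothelial markers 7.28, 7.22 and 7.26 in blastocysts and 8.91, 8.94 and 7.17 in granulosa cells. By these means, leukocyte markers were brightest in granulosa pool 1, and stroma and endothelial markers were dimmest in pool 3. The collagen gene COL3A1 reached 15.14, 15.19 and 10.41 and the endothelial receptor KDR 12.16, 11.85 and 6.83 in the granulosa pools, while the theca enzyme CYP17A1 stayed between 7.06 and 7.16 there. Of the other endothelial markers, TEK had 9.61, 9.93 and 7.60 and VWF 8.18, 8.14 and 7.20 in these pools. PECAM1 (7.36, 7.48 and 6.94) and CDH5 (7.24, 7.28 and 7.28) were dim there. Over 5 epithelial markers the mean was 9.47, 9.71 and 9.67 in blastocysts and 8.38, 9.89 and 7.67 in granulosa cells, where EPCAM reached 14.54 in pool 2. None of these markers passed with limma; an unadjusted p under 0.05 was found for 4 of 8 leukocyte, 2 of 6 stroma, 0 of 5 endothelial and 1 of 5 epithelial markers. In such whole samples, fewer cells of a type and less RNA per cell cannot be told apart.

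Translation begins when eIF2, bound to GTP and the initiator methionyl-tRNA, joins the small ribosomal subunit together with eIF1, eIF1A, eIF3 and eIF5. The eIF4F complex, made of the cap-binding protein eIF4E, the scaffold eIF4G and the RNA helicase eIF4A, brings this assembly to the messenger RNA. After the start codon has been found, eIF5B joins the ribosomal subunits, and eEF1 and eEF2 drive elongation. Stress kinases that phosphorylate the alpha subunit of eIF2 block its recycling by eIF2B and lower initiation throughout the cell, while binding proteins that sequester eIF4E act under the control of the kinase mTOR. In the mammalian embryo, the machinery first comes from the oocyte and is replaced by embryonic transcripts after genome activation.

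Most translation factors differed by less than 2-fold between blastocysts and granulosa cells. A gene was called where the adjusted p was under 0.05 with limma and the log2 ratio of blastocyst over granulosa signal was at least 1 in size. Of 58 members above background, 3 were higher in blastocysts, EIF2S2, EIF5 and EIF4B, and 3 were higher in granulosa cells, EIF4A2, EIF2AK2 and EIF2S3. Over all 13229 genes tested, 5.68% were called towards blastocysts and 7.65% towards granulosa cells, so that the members, at 5.17% in each direction, lay near the background. The median log2 ratio was -0.087 over the members and -0.023 over all genes. Whatever the adjusted p, 3 members had a log2 ratio of at least 1 (background 8.12%) and 4 of at most -1 (background 12%). A log2 ratio under 1 in size was found for 51 of the 58 members (87.9%) and for 79.9% of all genes. At an adjusted p under 0.05 and any size of ratio, 8 members lay above 0 (background 10%) and 6 below 0 (background 11.2%). With limma, no member and none of the 13229 genes tested passed without replicate 2. The smallest adjusted p of a member there was 0.0545, and 21 members had an unadjusted p under 0.05 (29.4% of all genes). Without replicate 1, a single member passed towards blastocysts and 2 towards granulosa cells. Neither EIF2AK1, the haem-regulated kinase, nor EIF2C1 was tested, because both were too dim: neither cell type gave a signal above the negative controls on 3 or more arrays.

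**Figure D1:**
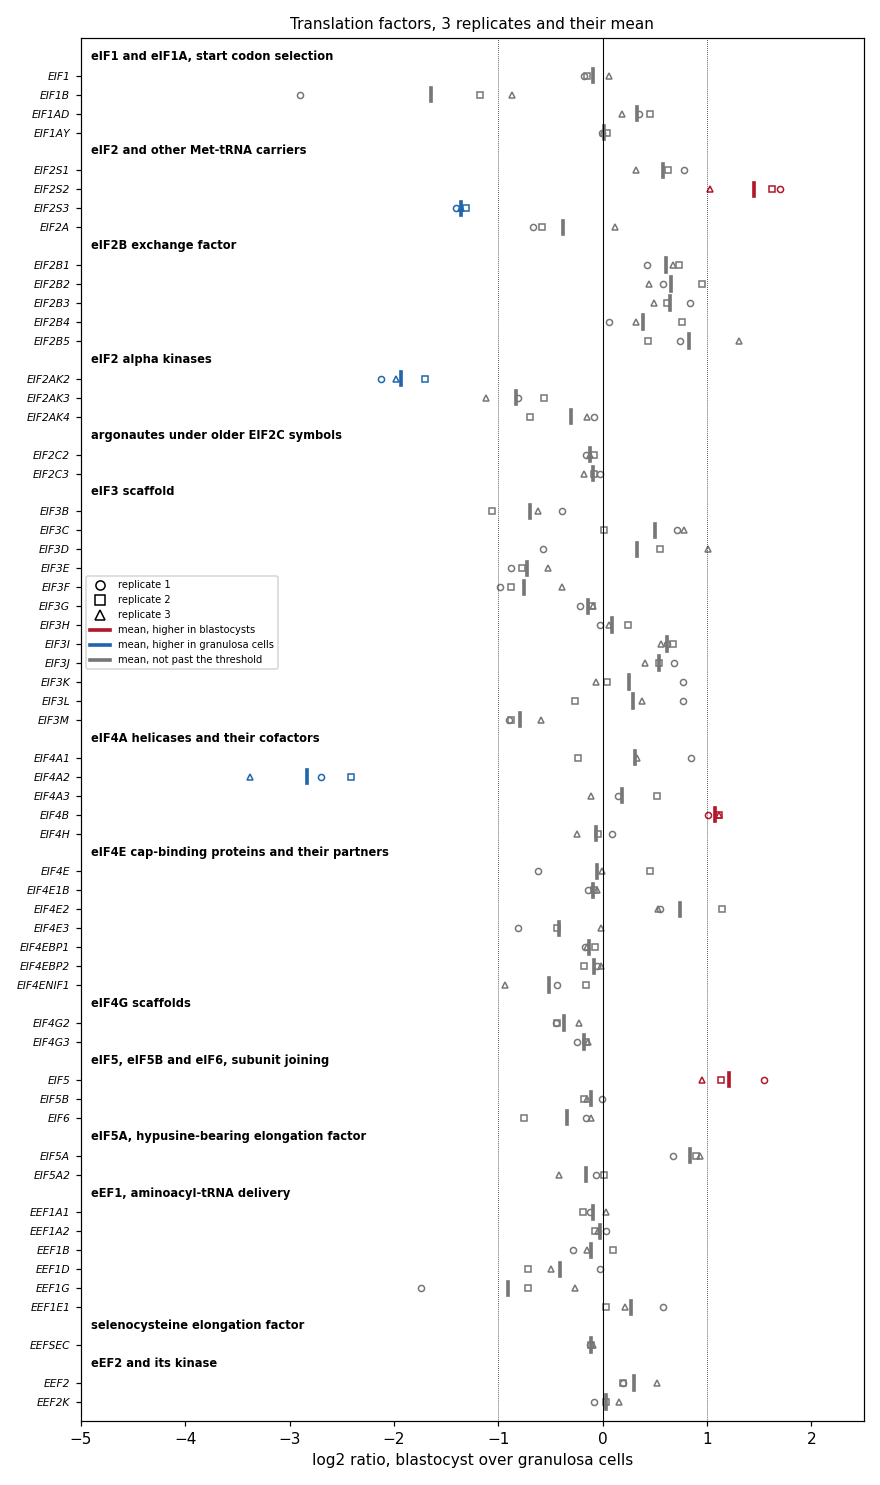
Log2 ratio of blastocyst over granulosa signal (horizontal axis) for the 58 tested members, grouped by role; open symbols are the 3 replicates, bars their means, and dotted lines mark a log2 ratio of -1 and 1. EIF4A2 stands farthest from 0 at -2.83, and 51 of the 58 means lie between the dotted lines.

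The members were bright on the array. Their median brightness lay at the 84.2 percentile of all genes tested, and 48 of the 58 were above background in both cell types on all 6 arrays. In 8 members (13.8%), against 2.28% of all genes, at least one channel exceeded 30000 intensity units on an array, near the upper limit of the scanner, where ratios can be understated. The elongation factor EEF1A1 and the start codon selection factor EIF1 were so on all 6 arrays in both cell types. Their log2 ratios of -0.09 ± 0.11 and -0.09 ± 0.13 (SD, n = 3) are therefore poorly determined, and their dimmer probes gave -0.81 and -1.37.

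The subunits of eIF2 itself had ratios in opposite directions. EIF2S2, the beta subunit, which contacts eIF5, had log2 intensities of 14.94, 14.99 and 14.80 in blastocysts and 13.24, 13.37 and 13.77 in granulosa cells, in replicates 1 to 3. All blastocyst values lay above all granulosa values, and blastocysts exceeded granulosa cells 2.73-fold (1.45 ± 0.37 on the log2 scale, limma adjusted p = 0.0239). Such separation is favoured in all called members, because they were chosen on the same values. Its blastocyst signal was over 30000 on 5 of 6 arrays. A dimmer probe gave 0.64 and stood for the gene once near-limit probes had been dropped, which ended the call (adjusted p = 0.0868), as did leaving out replicate 1 (adjusted p = 0.0885).

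EIF2S3, the gamma subunit, which binds GTP and the initiator tRNA, had log2 intensities of 10.98, 11.54 and 11.46 in blastocysts and 12.39, 12.84 and 12.82 in granulosa cells. The groups did not overlap, and the signal was 2.56-fold lower in blastocysts (-1.36 ± 0.05, adjusted p = 0.00560). Its ratios of -1.41, -1.31 and -1.36 in replicates 1 to 3 made it one of the most even members. The EIF2S3 call ended in 1 of 13 alternative analyses, the one without replicate 2 (limma adjusted p = 0.0554), where no gene was called. EIF2S1, the alpha subunit that carries the regulatory phosphorylation site, had log2 intensities of 12.84, 12.86 and 12.78 in blastocysts and 12.06, 12.24 and 12.46 in granulosa cells. Its log2 ratio of 0.57 ± 0.23 did not pass (adjusted p = 0.0587, 95% confidence interval 0.23 to 0.91). EIF2A, which can also deliver initiator tRNA, gave -0.38 ± 0.43 (adjusted p = 0.269).

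**Figure D2:**
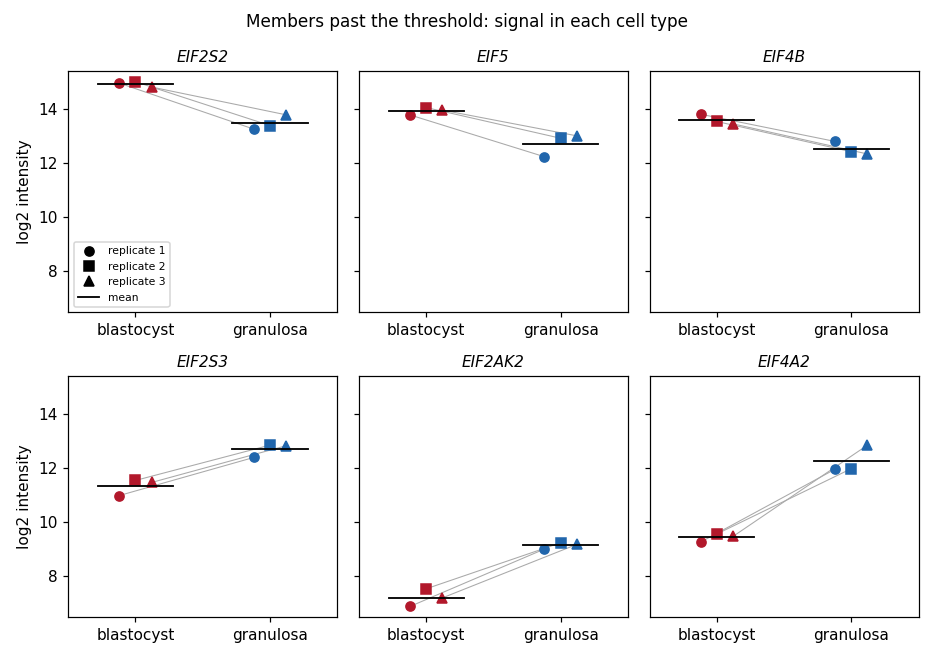
Log2 intensity (vertical axis) in blastocysts (left, red) and granulosa cells (right, blue) for the 6 members past the threshold, 1 panel each; symbols are replicates 1 to 3, grey lines join the same replicate and black bars are means. In each panel the 3 blastocyst values lie wholly above or wholly below the 3 granulosa values, which the choice of genes on these same values favours. EIF4A2 shows the widest gap, with means of 9.43 and 12.26.

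The eIF2B subunits, which together exchange GDP for GTP on eIF2, all had positive ratios of small size by their brightest probes. None of the 5 passed with limma, and 4 had an unadjusted p under 0.05, a level reached by 41.5% of all genes. The 5 log2 ratios ran from 0.38 for EIF2B4 to 0.83 for EIF2B5, with a median of 0.65, and all 15 replicate values were above 0. EIF2B1 (0.61 ± 0.16, adjusted p = 0.0322) and EIF2B3 (0.65 ± 0.17, adjusted p = 0.0311) were under the adjusted p of 0.05 but short of the ratio required. EIF2B5, which holds the catalytic domain, had 0.74, 0.43 and 1.30 in replicates 1 to 3 (adjusted p = 0.0848). It passed in the analysis with median centring in place of loess (1.00, adjusted p = 0.0288), while its dimmer probes gave 0.05 and 0.13. The dimmer probes of EIF2B2 gave 0.48 and -0.07, the second of them below 0 in all 3 replicates.

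The eIF2 alpha kinases had negative ratios. EIF2AK2, the interferon-induced kinase PKR that responds to double-stranded RNA, had log2 intensities of 6.88, 7.53 and 7.19 in blastocysts and 9.001, 9.23 and 9.17 in granulosa cells. The groups were well apart, and the signal was 3.82-fold lower in blastocysts (-1.93 ± 0.21, adjusted p = 0.00805). The blastocyst signal was above background on 5 of 6 arrays, so this gene was not tested where all arrays had to be above background in both cell types. The part of the leukocyte, stroma and endothelial markers given above in the EIF2AK2 signal was not tested. EIF2AK3, the kinase PERK of the endoplasmic reticulum, gave -0.81, -0.56 and -1.12 (-0.83 ± 0.28, adjusted p = 0.0410) and fell short of the ratio required. EIF2AK4, the amino acid sensor GCN2, gave -0.31 ± 0.34 (adjusted p = 0.260).

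Among the helicases, the paralogues EIF4A1 and EIF4A2 gave unlike values. EIF4A2 had log2 intensities of 9.26, 9.56 and 9.47 in blastocysts and 11.96, 11.97 and 12.84 in granulosa cells, the highest in granulosa pool 3. It was 7.10-fold lower in blastocysts (-2.83 ± 0.49, adjusted p = 0.0127), the largest ratio of the 58 members tested. The mean of the 8 tested granulosa markers was also highest in granulosa pool 3, at 8.18, 8.08 and 7.91 in blastocysts and 12.36, 12.06 and 13.26 in granulosa cells, and their part, or that of the stroma and endothelial markers dimmest there, was not tested. The call ended without replicate 1 (adjusted p = 0.0627). EIF4A1 had 12.62, 11.45 and 11.28 in blastocysts and 11.77, 11.68 and 10.95 in granulosa cells, with overlapping groups. Its log2 ratios were 0.84, -0.23 and 0.32 (0.31 ± 0.54, limma adjusted p = 0.415), with a 95% confidence interval of -0.42 to 1.05. The interval of EIF4A2, the member with the largest ratio, was -3.51 to -2.15. The difference between EIF4A1 and EIF4A2 was not tested. The 2 genes are close paralogues and the probe sequences were not examined, so how far each probe tells them apart was not tested. EIF4A3, the helicase of the exon junction complex, gave 0.18 ± 0.32.

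EIF4B, a cofactor that stimulates eIF4A, was 2.11-fold higher in blastocysts. Its log2 intensities were 13.79, 13.52 and 13.44 in blastocysts and 12.79, 12.41 and 12.32 in granulosa cells. The ratios of 1.01, 1.12 and 1.11 in replicates 1 to 3 were close together (1.08 ± 0.06, adjusted p = 0.00722). The call ended in 1 of 13 alternatives, again without replicate 2 (limma adjusted p = 0.0610), where no gene was called. The related cofactor EIF4H gave -0.07 ± 0.17 (adjusted p = 0.626).

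None of the 7 cap-binding proteins and their partners passed with limma, and 1 had an unadjusted p under 0.05, against 41.5% of all genes. EIF4E, which binds the cap, had log2 intensities of 11.07, 10.60 and 10.35 in blastocysts and 11.69, 10.15 and 10.35 in granulosa cells, with overlapping groups and ratios of both signs (-0.06 ± 0.54, 95% confidence interval -0.79 to 0.67). Its further probes, at 0.07 and -0.13, showed the same spread over replicates. EIF4E2, also called 4EHP, which competes for the cap and represses translation, gave 0.55, 1.14 and 0.53 (0.74 ± 0.35, adjusted p = 0.0693). A dimmer probe of EIF4E2 passed at 1.19 (adjusted p = 0.0309) and another gave 0.78 (adjusted p = 0.0154). EIF4E3 gave -0.42 ± 0.40, and the eIF4E carrier EIF4ENIF1 gave -0.51 ± 0.39. The eIF4E-binding protein EIF4EBP1, at -0.13 ± 0.05 (adjusted p = 0.177), and the germ cell form EIF4E1B, at -0.09 ± 0.05, were dim, at the 5.19 and 0.544 percentiles of brightness and above background on 3 of 6 arrays in each cell type. A difference in these probes may not be detectable. The second eIF4E-binding protein EIF4EBP2 gave -0.09 ± 0.09 (adjusted p = 0.366). Of the scaffolds, EIF4G2, also called DAP5, which supports cap-independent initiation, gave -0.37 ± 0.12 (adjusted p = 0.0545), with granulosa signal over 30000 on each of the 6 arrays. EIF4G3 gave -0.18 ± 0.06 on a dim probe.

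None of the 12 eIF3 subunits passed with limma, 6 had an unadjusted p under 0.05 (41.5% of all genes), and they did not share a direction. The complex holds the small ribosomal subunit ready for the messenger RNA. Its 12 log2 ratios ran from -0.79 to 0.62, 7 above and 5 below 0, with a median of 0.17. EIF3I (0.62 ± 0.06, adjusted p = 0.0137, further probe 0.76) and EIF3J (0.54 ± 0.14, adjusted p = 0.0328) were under the adjusted p of 0.05 on the positive side. On the negative side were EIF3M (-0.79 ± 0.17, adjusted p = 0.0227) and EIF3E (-0.73 ± 0.18, adjusted p = 0.0278). EIF3F, a subunit of the same core as EIF3E and EIF3M, gave -0.75 ± 0.32 (adjusted p = 0.0589), and its further probes gave -0.17 to -0.61. The granulosa signals of EIF3E and EIF3M were over 30000 on each of the 6 arrays, and that of EIF3F on 5. EIF3C, a symbol that the RefSeq table lists as a synonym of EIF3CL, gave 0.50 ± 0.43. EIF3D had replicates of both signs, at -0.57, 0.55 and 1.01 (adjusted p = 0.553).

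EIF5, which activates GTP hydrolysis by eIF2 at the start codon, was 2.31-fold higher in blastocysts by its brightest probe. Its log2 intensities were 13.77, 14.04 and 13.95 in blastocysts and 12.22, 12.90 and 12.99 in granulosa cells, without overlap (log2 ratio 1.21 ± 0.30, adjusted p = 0.0241). The further probes gave 0.81 and -0.13, and the mean over all 3 probes, 0.63, did not reach the ratio required. The call also ended without any 1 of the 3 replicates (adjusted p between 0.0513 and 0.122), which makes it the least stable of the 6. The subunit-joining GTPase EIF5B gave -0.11 ± 0.09 (adjusted p = 0.277). The EIF5B ratio was -0.13, -0.48 and -0.41 on the arrays titled for blastocysts. It was 0.11, 0.12 and 0.12 on those for granulosa cells, so its sign changed with the dye orientation.

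The probes of EIF6, a factor that keeps the large ribosomal subunit from joining too early, gave opposite directions. The brightest probe gave -0.15, -0.75 and -0.11 (-0.34 ± 0.36, adjusted p = 0.247). A dimmer probe was positive in all 3 replicates and passed towards blastocysts (1.49 ± 0.05, adjusted p = 0.00488). Which of them reports the EIF6 messenger RNA was not tested, and no direction is given for this gene.

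Of 18 members with more than 1 tested probe, the 25 further probes included 6 of the opposite sign to the brightest, 3 that differed from it by more than 1 on the log2 scale and 2 that passed, those of EIF4E2 and EIF6; of all tested probes on the array, 10.1% passed. Of the 25, 15 were closer to 0 than the brightest probe.

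**Figure D3:**
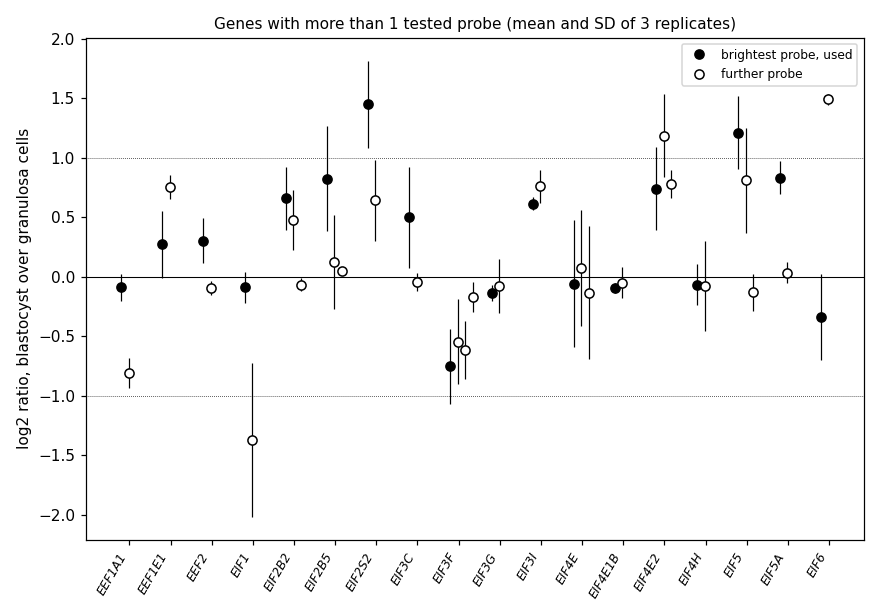
Log2 ratio of blastocyst over granulosa signal (vertical axis) for each tested probe of the 18 members with more than 1; filled circles are the brightest probe, used for the gene, open circles the further probes in order of brightness, and bars the SD of 3 replicates. The probes of EIF6 lie at -0.34 and 1.49, and those of EIF5 at 1.21, 0.81 and -0.13.

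For EIF1B, a paralogue of EIF1, replicate 1 stood apart. Its log2 intensities were 10.28, 9.87 and 10.31 in blastocysts and 13.18, 11.05 and 11.18 in granulosa cells. Every granulosa value lay above every blastocyst value, and the ratios of -2.90, -1.18 and -0.87 did not pass (-1.65 ± 1.09, adjusted p = 0.117). They passed where the 6 arrays were fitted one by one, blocked by replicate number (adjusted p = 0.0162). That fit uses 1 correlation of 0.657 for all probes. Its 3 ratios differed from one another by more than the 2 arrays of a replicate did (limma F test, adjusted p = 0.00246). Granulosa pool 1, the high one, was also the brightest in leukocyte markers and in the 2 tested erythrocyte markers, whose mean log2 intensity was 7.71, 7.44 and 7.33 in blastocysts and 10.17, 8.04 and 7.99 in granulosa pools. The 2 erythrocyte markers had opposite directions. HBB gave a log2 ratio of -2.83, with 12.97, 8.85 and 8.95 in granulosa pools 1 to 3. HBA gave 0.35, with 7.37, 7.24 and 7.02 in those pools. Neither erythrocyte marker passed with limma, though both had an unadjusted p under 0.05. The part of these and the stroma and endothelial markers in the EIF1B signal was not tested. The members with an EIF1A symbol, EIF1AD (0.33 ± 0.14) and EIF1AY (0.01 ± 0.03, dim), did not pass.

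None of the 9 tested members with an EEF symbol passed with limma, and 1, EEF2, had an unadjusted p under 0.05, against 41.5% of all genes. EEF2, which moves the ribosome along the messenger RNA, had log2 intensities of 12.70, 12.78 and 12.67 in blastocysts and 12.50, 12.59 and 12.15 in granulosa cells, apart but close (0.30 ± 0.19, adjusted p = 0.126, 95% confidence interval 0.02 to 0.59). Its kinase EEF2K gave 0.04 ± 0.12. EEF1A2, the form of muscle and neurons, was dim at -0.03 ± 0.05. The exchange subunits of eEF1 gave -0.11 ± 0.19 for EEF1B, now EEF1B2, -0.41 ± 0.35 for EEF1D and -0.91 ± 0.76 for EEF1G. EEF1G, like EIF1B, was most negative in replicate 1, at -1.74, -0.71 and -0.26 (F test adjusted p = 0.0406). Its log2 intensities were 10.90, 11.75 and 11.94 in blastocysts and 12.64, 12.46 and 12.21 in granulosa cells, so that pool 1 was lowest in blastocysts and highest in granulosa cells; the part of the markers of other cells was not tested here either. EEF1E1, a subunit shared with the multi-synthetase complex, gave 0.27 ± 0.28. Its further tested probe gave 0.76 ± 0.10 (limma adjusted p = 0.0138), short of the ratio required. The selenocysteine factor EEFSEC gave -0.11 ± 0.01 on a dim probe. The EEFSEC ratio changed sign with the dye orientation. It was 0.13, 0.28 and 0.10 on the arrays titled for blastocysts and -0.37, -0.51 and -0.28 on those for granulosa cells. Its small SD was taken after the orientations had been averaged.

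EIF5A, which carries the modified amino acid hypusine and helps ribosomes past stalling sequences, had log2 intensities of 8.79, 9.04 and 8.96 in blastocysts and 8.11, 8.14 and 8.02 in granulosa cells. The groups did not overlap, and the ratio of 0.83 ± 0.14 (adjusted p = 0.0158) fell short of the size required. Its further probe gave 0.04. The paralogue EIF5A2 gave -0.16 ± 0.23 (adjusted p = 0.371). The 2 argonautes tested, EIF2C2 (-0.12 ± 0.04) and EIF2C3 (-0.10 ± 0.08), lay near 0 on dim probes.

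Replicates differed in few translation factors. The F test between replicates passed for 3 of 58 members (5.17%), EIF1B, EEF1G and EIF4A1, against 15.7% of all genes. The medians over the members were -0.06, -0.08 and -0.03 in replicates 1 to 3, and the ratio had the same sign in all 3 replicates for 42 of 58 members (72.4%) and for 67.1% of all genes.

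Other genes of translation were examined as 8 lists of 101 genes in all, 85 of them tested. Of these, 6 passed towards blastocysts and 5 towards granulosa cells, against the background shares of 5.68% and 7.65%, and the median log2 ratio was 0.08. ETF1 and GSPT1 had the largest positive ratios of the 85. ETF1, which reads stop codons, had log2 ratios of 2.67, 2.15 and 2.30 and was 5.19-fold higher in blastocysts (2.38 ± 0.27, adjusted p = 0.00801). GSPT1, the GTPase that acts with it, gave 2.30, 1.87 and 2.29 (2.15 ± 0.25, adjusted p = 0.00812). Its paralogue GSPT2, named after its values had been seen, was 4.27-fold lower in blastocysts (-2.04, -1.89 and -2.35 in replicates 1 to 3, mean -2.09 ± 0.23, adjusted p = 0.00794). In the list of 9 tested termination, recycling and rescue genes, 3 passed towards blastocysts and 1 towards granulosa cells.

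Downstream and upstream of eIF2, 2 of 8 tested genes of the eIF2 kinase and phosphatase circuit were lower in blastocysts and none higher. The list median was -0.35. Over all genes, 7.65% were called towards granulosa cells and 5.68% towards blastocysts. In the same list, TRIB3 gave 0.47 ± 0.14 (limma adjusted p = 0.0412) and DDIT3 -0.60 ± 0.13 (adjusted p = 0.0258), both short of the ratio required. ATF4, the transcription factor whose translation rises when eIF2 is phosphorylated, gave -1.08 ± 0.27 (adjusted p = 0.0237), and PPP1R15B, which targets a phosphatase to eIF2, gave -1.77 ± 0.34 (adjusted p = 0.0156). The ATF4 call ended in 5 of 13 alternatives, in 3 of them with a ratio of -0.92 or -0.93. Of 14 tested genes of the mTORC1 pathway, DDIT4, an inhibitor of mTORC1, was lower in blastocysts (-1.41 ± 0.35, adjusted p = 0.0235), and none was higher. The DDIT4 call ended without any 1 of the 3 replicates. MTOR itself gave -0.53, 0.54 and -0.34.

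Of 18 tested aminoacyl-tRNA synthetases and their scaffold proteins, 2 passed, both towards blastocysts, with a median of 0.30. The shares over all genes were 5.68% towards blastocysts and 7.65% towards granulosa cells. NARS1, which charges the asparagine tRNA, gave 1.83 ± 0.16 (adjusted p = 0.00694), with further probes from 0.31 to 2.20, and FARSB, of the phenylalanine enzyme, gave 1.00 ± 0.19 (adjusted p = 0.0173), at the edge of the ratio required. The capping enzyme RNGTT was higher in blastocysts (1.34 ± 0.19, adjusted p = 0.0110), and the mitochondrial elongation factor TUFM was lower (-1.21 ± 0.23, adjusted p = 0.0165). None of 12 poly(A)-binding proteins and partners and none of 7 hypusine and diphthamide enzymes passed with limma, with 3 genes of each list at an unadjusted p under 0.05 (41.5% of all genes). The 11 calls in these lists all ended without replicate 2, where none of the 13229 genes tested was called.

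**Figure D4:**
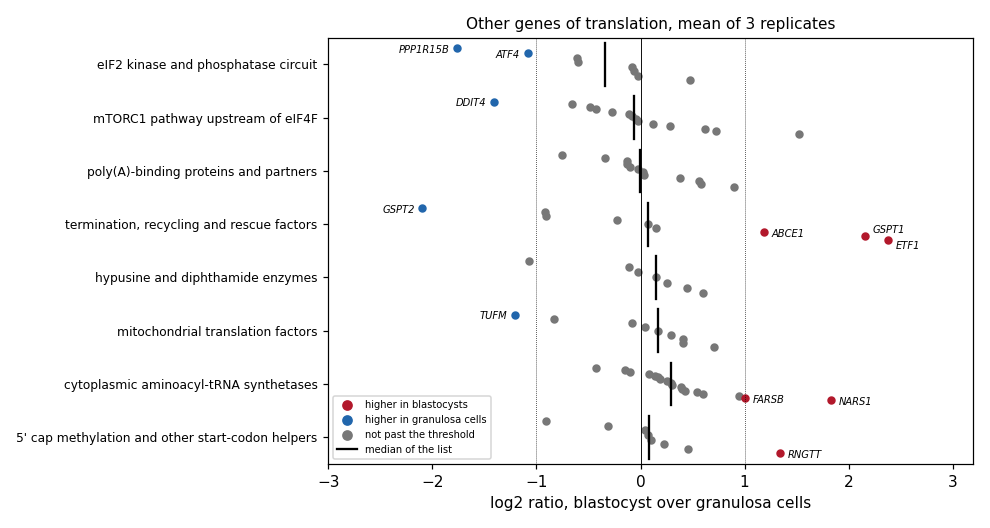
Log2 ratio of blastocyst over granulosa signal (horizontal axis, mean of 3 replicates) for the tested genes of 8 further lists; each point is a gene, coloured by call, and black bars are list medians. ETF1 and GSPT1 lie farthest to the right at 2.38 and 2.15, and GSPT2 farthest to the left at -2.09.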

How the data were processed

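The deposited intensities, raw and background, were read at 532 nm (Cy3) and 635 nm (Cy5) and carry no normalization, per the file headers. The authors' value table is a score: in size its values equal one channel's log2 net intensity divided by the other's (100% within 1e-04), with array medians of -1 to -0.9984 on the arrays titled for blastocysts and 0.9989 to 1.001 on those for granulosa cells. The source of the sign is unknown, and the table served only as a check. With R 4.3.3 and limma 3.58.1, raw intensities were background-corrected by normexp (offset 50), normalized within arrays by loess with control spots at weight 0, and turned to blastocyst over granulosa. Of 43794 probes, 35050 were tested, those brighter than the 95th percentile of 153 negative controls on 3 or more of the 6 arrays in either cell type. Levels per cell type are intensities after loess and Aquantile, on the log2 scale. With lmFit and eBayes, the 3-replicate mean was tested against 0, and p-values were adjusted by Benjamini-Hochberg over all tested probes. Deviations of same-numbered arrays correlated at 0.848 to 0.931, and those of other numbers at -0.589 to -0.203, so the numbers in the titles were taken as pairing. The limma step was tested on simulated data. Symbols were updated through the RefSeq table of ARS-UCD2.0. The members and lists were chosen with earlier results of these data known. Values are given for members that passed, that reached a ratio of 1 without passing, the brightest of each role, core factors and paralogues, and up to 2 passing genes per further list; other members and genes named were chosen after their values had been seen. Figures used Python 3.11.15 with matplotlib 3.10.9.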

Additional observations from a re-analysis of the deposited data

How the results depend on the processing

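The call counts were compared over 13 alternatives, and the 29 named members gave 367 values in them, of which 352 kept their direction or stayed uncalled, 12 lost a call, 3 gained one and none of those called changed sign. Members higher in blastocysts numbered 0 to 2 when 1 replicate was left out and members higher in granulosa cells 0 to 3, against 3 and 3 with all replicates. All genes numbered 0 to 474 towards blastocysts and 0 to 835 towards granulosa cells in the same fits, against 752 and 1012, and the counts of 0 came without replicate 2, where limma gave 3887 genes with an unadjusted p under 0.05. A fit on 2 replicates has fewer degrees of freedom. The median log2 ratio of the members was -0.041 without background correction, -0.0085 with median centring, -0.20 without normalization (-0.21 over all genes there), -0.010 with both cell types above background on all arrays, -0.061 without probes near the scanner limit and -0.023 from the deposited net intensities. Blocked by replicate number, with dye as a term, the 6 arrays gave 3 members towards blastocysts and 4 towards granulosa cells, EIF1B being the addition, and 1036 and 1427 genes in all; this changed no other call among the members. Dim probes, near the negative controls, limit what can be seen for EIF4EBP1, EIF4E1B, EIF4G3, EIF1AY, EEF1A2, EEFSEC and the argonautes. The ratios of EEFSEC, EIF4E1B, EIF4EBP1, EIF2C2, EIF3G and EIF5B were positive on all arrays of 1 dye orientation and negative on all of the other. The SD of the averaged replicates leaves out such a dependence on the dye.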
